A study of Mus musculus with 6 samples.

Results

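Interferon-stimulated genes and interferon-inducible GTPase genes were examined in bulk RNA sequencing of mouse kidney. The 41 genes were chosen by symbol as antiviral effectors, nucleic acid sensors, transcription factors, GTPases and chemokines that interferons induce. Of these, 39 were found under their own symbol among the 17550 genes of the deposited table, and Rigi was found under its older symbol Ddx58, which makes 40 genes. Mx1 was not analysed here. All 40 had a mean normalized count of at least 10 over the 6 libraries and were tested.

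The kidneys came from mice labelled KC-Tie2 (3 libraries) and mice labelled Control (3 libraries), were perfused with saline before RNA was extracted, and gave poly(A)-selected libraries. KC-Tie2 mice model psoriasis through excess of Tie2, a receptor tyrosine kinase, in the keratinocytes of the skin, so the tissue sampled is not the one to which the transgene is directed. The labels give no strain, sex, age, treatment or litter, and do not say which alleles the Control mice carry; the authors' deposited comparison heads that group WT. Nor do they state that every sample is its own animal, and the p-values below therefore speak only to the scatter among these 6 samples, which may be technical.

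Type I interferons signal through the receptor chains encoded by Ifnar1 and Ifnar2 to a complex that includes STAT2 and IRF9, which binds the interferon-stimulated response element in promoters of antiviral genes. Interferon-gamma signals through the receptor chains encoded by Ifngr1 and Ifngr2 to promoters with gamma-activated sites, and together with IRF1 this strongly induces the guanylate-binding proteins and the immunity-related GTPases. These GTPases assemble on the vacuoles of intracellular pathogens. Many target genes respond to both kinds of interferon, so the classes used here are a division by best known role.

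Normalized counts summed to between 23647811 and 25495455 per library, and the step between low values corresponded to 18843914 to 29516161 estimated counts per library before scaling. Of all 17539 genes tested, 297 (1.69%) had a limma adjusted p under 0.05 after Benjamini-Hochberg adjustment, and of these 150 were higher in KC-Tie2 kidneys. All 9 kidney segment markers were present, the lowest value being 936 for the podocyte gene Nphs1 in Control replicate 3. Tek, the gene of the Tie2 receptor, had a mean of 1048 ± 50.9 in Control against 948 ± 24.8 in KC-Tie2 kidneys (SD, n = 3, limma adjusted p = 0.361), which checks nothing about a transgene directed to skin.

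Promoter sequence was available for 29 of the 40 genes in the RefSeq table of the build GRCm38.p6, in windows of 300 bases from 250 before to 50 after the annotated start. The core of the interferon-stimulated response element, GAAA followed by any 2 bases and a second GAAA, on either strand, was in the windows of 17 of the 29 genes (58.6%), beside 3.99% of all 27025 genes of that table and 3.76% of the 11399 of them that were tested here. All 5 GTPase genes with a window held it, as did 8 of 15 type I-like effectors, 2 of 2 sensors, 1 of 4 transcription factors, 1 of 2 chemokines and 0 of 1 of the PARP group. The gamma-activated site TTCNNNGAA, which reads the same on both strands, was in 6 of the 29 (20.7%), beside 9.55% of all genes. Of the 4 genes with both motifs, 1 had matches that share bases. A match is a run of letters and not a measured binding site.

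The sequences below show the part before the start that holds this core, in capitals, for 3 effectors with different values in these kidneys, 1 transcription factor and 2 GTPases, read 5′ to 3′ on the strand of the gene. Coordinates are those of GRCm38.p6, and not of the build mm39 that the expression table uses. Ifit1 lies at chr19:34640739-34640838 (plus strand), Bst2 at chr8:71537562-71537661 (minus), Isg15 at chr4:156200850-156200949 (minus), Stat2 at chr10:128270248-128270327 (plus), Gbp3 at chr3:142559940-142560039 (plus) and Gbp7 at chr3:142530218-142530317 (plus).
Ifit1: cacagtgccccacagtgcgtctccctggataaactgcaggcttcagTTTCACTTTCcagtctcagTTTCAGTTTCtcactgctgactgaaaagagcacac
Bst2: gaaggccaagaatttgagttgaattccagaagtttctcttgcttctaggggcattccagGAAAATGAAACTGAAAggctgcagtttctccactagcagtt
Isg15: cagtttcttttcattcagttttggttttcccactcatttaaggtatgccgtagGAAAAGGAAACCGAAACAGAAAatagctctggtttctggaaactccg
Stat2: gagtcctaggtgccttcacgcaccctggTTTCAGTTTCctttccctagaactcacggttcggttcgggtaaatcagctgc
Gbp3: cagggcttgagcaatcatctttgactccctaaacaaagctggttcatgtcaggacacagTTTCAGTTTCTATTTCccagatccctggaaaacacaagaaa
Gbp7: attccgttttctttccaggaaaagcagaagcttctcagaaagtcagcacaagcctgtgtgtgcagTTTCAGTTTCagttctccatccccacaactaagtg

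The Isg15 stretch holds 3 overlapping matches and the Bst2 and Gbp3 stretches 2 overlapping matches each, while the 2 matches of Ifit1 are separate. Isg15, with its 3 matches, had a log2 fold change below 0, as did Rsad2, which also holds a match. The 17 genes with a match had log2 fold changes from -0.26 to 0.64 with a median of 0.26, and the 12 without one had values from -0.27 to 0.40 with a median of 0.047. The ranges overlapped over most of their length, and the difference between them was not tested.

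The genotypes were compared to ask what differs in the kidney when the skin carries the psoriasis model. Of the 40 interferon genes, 1 rose and 0 fell at an adjusted p under 0.05, where 0.855% of all genes tested were called higher and 1.69% in either direction. The gene that rose was Gbp6, a guanylate-binding protein. A log2 fold change above 0 was found for 33 of the 40, beside 50.3% of all genes tested. Their median log2 fold change on the log2(value + 1) scale was 0.20, beside 0.0012 over all genes tested, and with single libraries left out it lay between 0.13 (without Control replicate 1) and 0.30 (without Control replicate 2). At an unadjusted p under 0.05 there were 12 higher members, where the share over all genes was 7.57%, and 1 lower member, where it was 7.77%. In 11 members the 3 KC-Tie2 libraries lay above the 3 Control libraries (9.96% of all genes), and in 1 they lay below (10% of all genes). Each of these counts of higher members includes Mx2, which was kept in the deposited table only through its KC-Tie2 libraries. The members were thus shifted upward by small amounts, with 1 call. In the authors' deposited table, 2 of the 40 had an FDR under 0.05, Gbp6 (ratio 1.94) and Parp14 (ratio 1.36), both higher, where 1.83% of all genes were called higher and 3.91% in either direction.

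**Figure D1:**
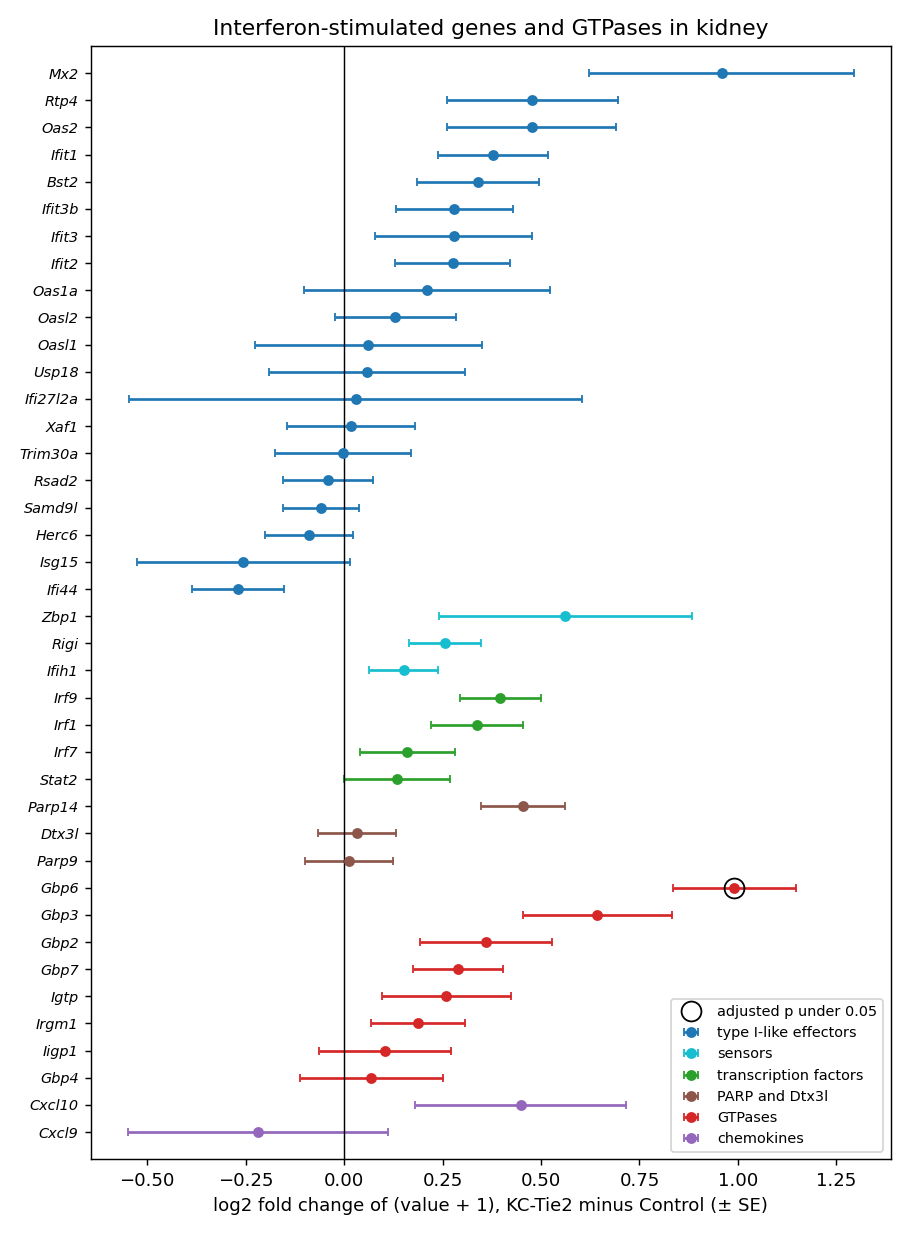
Log2 fold change of (normalized count + 1), KC-Tie2 minus Control, with its standard error from limma (3 libraries per group), for the 40 genes grouped and coloured by class. Of the 40 points 33 lie above 0, and Gbp6, circled, is the gene with an adjusted p under 0.05.

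Among the 8 GTPases, all had a log2 fold change above 0 (median 0.27), beside 50.3% of all genes tested. Of the 8, 1 rose and 3 were higher at an unadjusted limma p under 0.05, beside 0.855% and 7.57% of all genes. Gbp6 (ENSMUSG00000104713, mm39 chromosome 5, 105418568 to 105441564, minus strand) was at 151, 220 and 145 normalized counts in Control replicates 1 to 3 and at 320, 348 and 343 in KC-Tie2 replicates 1 to 3. The groups did not overlap, and the lowest KC-Tie2 library was above the highest Control library, replicate 2. Gbp6 rose 1.99-fold (log2 fold change 0.99 ± 0.16, SE, limma adjusted p = 0.0127).

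The Gbp6 value depends on how reads were divided in its gene cluster. The gene lies with Gbp9, Gbp4 and Gbp10 in a block of 216 kb on chromosome 5, and a further annotated gene, Gm43302, covers 22994 of its bases on the same strand. Of the 50-base words of the longest Gbp6 transcript in GENCODE M21, 59.7% also occur in transcripts of other genes, and 51.5% of all its words occur in Gm43302. Its estimated counts were not whole (within 0.02) in any library, and 15 of the 40 members had such a value in at least 1 library. Gm43302 itself was at 0.0043, 67.6 and 19.6 in Control and 46.7, 20.3 and 71.4 in KC-Tie2 libraries, with no order between the groups. Summed with Gbp10, Gbp6 was at 203 ± 59.2 and 375 ± 27.4 (SD, n = 3, limma adjusted p = 0.0354). Summed with Gbp10 and Gm43302, the values were 180, 338 and 179 in Control and 391, 406 and 467 in KC-Tie2 libraries. That sum still did not overlap between the groups (log2 fold change 0.92 ± 0.25), but its limma adjusted p was 0.139 and the call was lost. The Gbp6 call was also lost without Control replicate 1 (0.0736), Control replicate 3 (0.0597) or KC-Tie2 replicate 2 (0.071), with log2 fold changes of 0.88 to 0.97 in these limma fits.

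The other guanylate-binding protein genes differed by less. Gbp3 was at 91.4, 145 and 122 in Control and at 190, 210 and 156 in KC-Tie2 libraries (1.56-fold, limma adjusted p = 0.119), so that the groups stood apart by a narrow gap. Gbp7 was at 348, 405 and 341 in Control and at 384, 467 and 490 in KC-Tie2 libraries (1.22-fold, limma adjusted p = 0.253), and Control replicate 2 lay inside the KC-Tie2 range. Gbp3 and Gbp7 lie next to each other, with Gbp5 and Gbp2, in a block of 144 kb on chromosome 3. Gbp2 was at 160 ± 39.8 in Control against 202 ± 4.48 in KC-Tie2 kidneys (SD, n = 3), with Control replicate 2 at 206 and the KC-Tie2 libraries at 198 to 207. Gbp4, the neighbour of Gbp6, was at 183 ± 44.1 and 190 ± 30.2, groups that overlapped almost fully. Gbp4 and Gbp9 share 23773 annotated bases on the same strand.

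The 3 immunity-related GTPases had log2 fold changes of 0.10 to 0.26 and were not called. Irgm1, a regulator of the family that also acts in autophagy, was at 686, 925 and 787 in Control and at 845, 1039 and 840 in KC-Tie2 libraries (1.14-fold, limma adjusted p = 0.514). Igtp, also called Irgm3, was at 218 ± 50.2 in Control against 258 ± 31 in KC-Tie2 kidneys, and overlaps Irgm2 on the same strand. Iigp1, an effector of the family that loads onto vacuoles, was at 197 ± 43.7 and 210 ± 30.3. In each of these 3 genes Control replicate 2 lay above at least 1 KC-Tie2 library.

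Control replicate 2 had the highest Control value at all 8 GTPases, beside 34.6% of all genes tested. As a mean over the 8 genes of log2(value + 1) minus the Control mean, it stood at 0.32, inside the KC-Tie2 range of 0.29 to 0.44, while Control replicates 1 and 3 stood at -0.19 and -0.12. For this mean over the 8 genes, the range among the Control kidneys was wider than the difference between the group means. For Gbp6 alone it was narrower, from -0.22 to 0.38 beside a log2 fold change of 0.99. Without Control replicate 2 the median log2 fold change of the GTPases was 0.40.

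**Figure D2:**
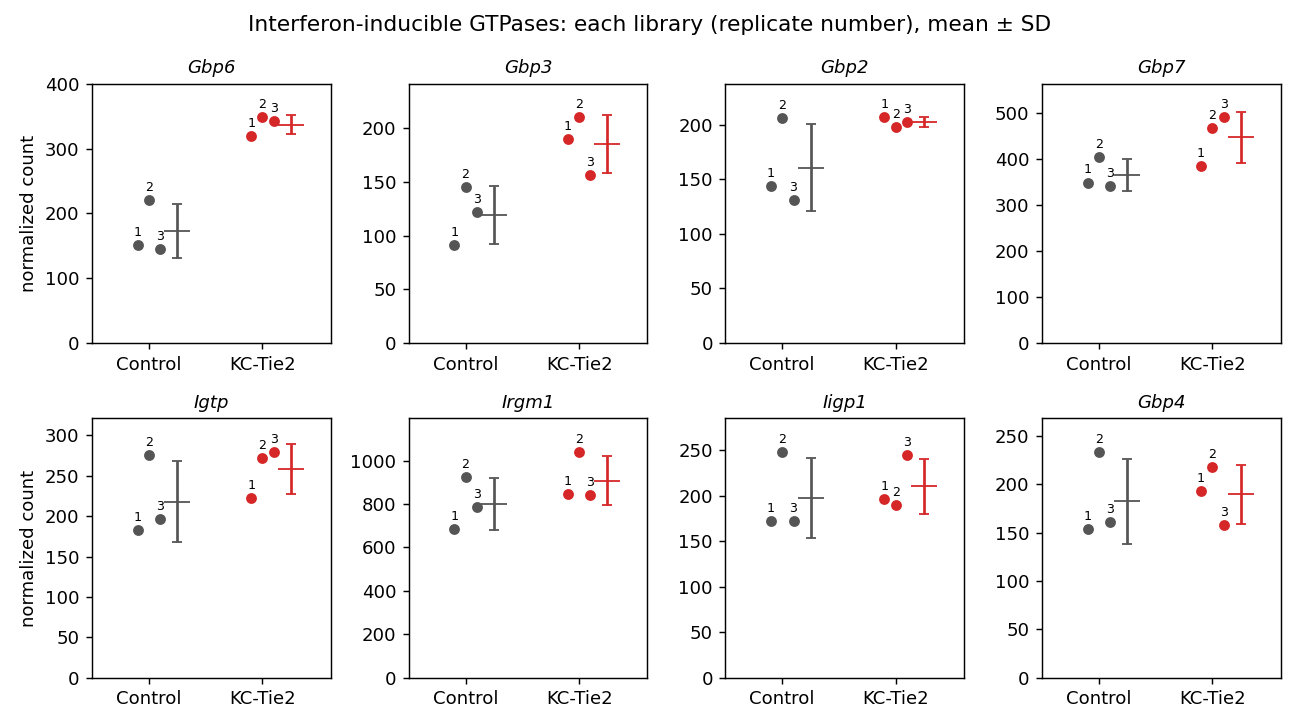
Normalized counts of the 8 interferon-inducible GTPase genes in each library (points, labelled by replicate number), with the group mean and SD beside them, on axes that start at 0. Control replicate 2 is the highest Control library in all 8 panels, and the groups stand apart for Gbp6 and Gbp3.

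The type I-like effectors numbered 20 and were spread around a median log2 fold change of 0.096, from -0.27 to 0.96. Of these, 14 were above 0, beside 50.3% of all genes tested, and none was called. At an unadjusted limma p under 0.05, 5 were higher and 1 lower, beside 7.57% and 7.77% of all genes. Mx2, a dynamin-like antiviral GTPase that this table lists as a polymorphic pseudogene, was at 23.5, 14.9 and 14.9 in Control and at 28.9, 41.7 and 34.5 in KC-Tie2 libraries (1.94-fold, limma adjusted p = 0.192). These values rest on 11 to 50 estimated counts per library. In Control all lay under 24.8, the lowest maximum of any gene kept, so Mx2 was kept only through the KC-Tie2 libraries. That favoured a value above 0 and groups that stand apart, so neither was read as a result. Ifit1, which binds viral RNA lacking the host cap methylation, was at 128, 125 and 114 in Control and at 153, 165 and 159 in KC-Tie2 libraries (1.30-fold, limma adjusted p = 0.212). The groups of Mx2 and of Ifit1 stood apart, as 9.96% of all genes tested did with KC-Tie2 above, but the tests were not passed.

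Oas2, a synthetase that activates RNase L, was at 59.9, 69.4 and 47.4 in Control and at 96.6, 76.7 and 72.6 in KC-Tie2 libraries (1.39-fold, limma adjusted p = 0.316). Rtp4, a chaperone of receptors that interferon induces, was at 69.3, 48.7 and 73.1 and then at 101, 90 and 74.4 (1.39-fold, limma adjusted p = 0.319), with KC-Tie2 replicate 3 just above the highest Control library. Rtp4 shares 525 bases on opposite strands with Masp1, which was itself at means of 61 in Control and 86.8 in KC-Tie2 kidneys, and the part of Masp1 reads in the Rtp4 values was not tested. Bst2, tetherin, which holds budding virions at the cell surface, was at 89.3, 102 and 96.1 in Control and at 117, 128 and 120 in KC-Tie2 libraries (1.27-fold, limma adjusted p = 0.32). These 3 genes had groups that did not overlap, as 9.96% of all genes tested did with KC-Tie2 above, and none of the 3 passed the test.

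Several core genes of the type I response had log2 fold changes near or below 0. Isg15, the ubiquitin-like modifier, was at 44.9 ± 9.31 in Control against 37.5 ± 7.49 in KC-Tie2 kidneys (SD, n = 3). Of the genes that act on ISG15, the deconjugating protease Usp18 was at 57.3 ± 2.32 and 61.7 ± 18.1, and the ligase Herc6 at 276 ± 24.2 and 259 ± 6.53. Rsad2, viperin, was at 543, 663 and 679 in Control and at 536, 691 and 606 in KC-Tie2 libraries (log2 fold change -0.041 ± 0.11). Ifi44 was at 283, 277 and 336 in Control and at 245, 234 and 261 in KC-Tie2 libraries, all 3 below the Control range (log2 fold change -0.27 ± 0.12, limma adjusted p = 0.299). Samd9l, a growth and virus restriction factor and the member with the highest mean normalized count, was at 5967, 5490 and 5693 in Control and at 4648, 5961 and 5956 in KC-Tie2 libraries. Isg15, Rsad2 and Samd9l overlapped between the groups, and the low KC-Tie2 value of Samd9l came from replicate 1.

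The remaining Ifit genes, Ifit2, Ifit3 and Ifit3b, had log2 fold changes of 0.28 each, with overlapping groups. Ifit3 and Ifit3b lie with Ifit1 and Ifit2 within 99.3 kb on chromosome 19, and 51.2% of the 50-base words of the Ifit3 transcript also occur in Ifit3b, so the division of reads between these copies is uncertain. The same holds for Oas1a, of whose words 57.6% occur in Oas1g. The other effectors, Oas1a, Oasl1, Oasl2, Xaf1, Trim30a and Ifi27l2a, had log2 fold changes between -0.0036 and 0.21 and overlapping groups. Ifi27l2a was the most variable, at 112, 35.5 and 37.9 in Control and at 92.2, 58.4 and 29.9 in KC-Tie2 libraries.

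All 3 sensors were above 0, beside 50.3% of all genes tested, and none was called. Rigi, whose protein detects viral RNA with a triphosphate end, was at 646, 701 and 598 in Control and at 815, 814 and 695 in KC-Tie2 libraries (1.19-fold, limma adjusted p = 0.201). KC-Tie2 replicate 3 fell within the Control range. Ifih1, which encodes the long double-stranded RNA sensor MDA5, was at 399, 429 and 440 in Control and at 466, 488 and 453 in KC-Tie2 libraries (1.11-fold, limma adjusted p = 0.46), a small difference without overlap. Zbp1, a sensor of Z-form nucleic acids that can start necroptosis, was at 26 ± 8.54 and 37.8 ± 6.34.

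The 4 transcription factors were all above 0, beside 50.3% of all genes tested, with a median log2 fold change of 0.25 and no call. Irf9, the DNA-binding subunit of the type I interferon complex, was at 365, 423 and 371 in Control and at 527, 545 and 455 in KC-Tie2 libraries (1.32-fold, limma adjusted p = 0.0837). Irf1, a transcription factor gene that interferon-gamma induces, was at 343, 345 and 324 in Control and at 497, 431 and 363 in KC-Tie2 libraries (1.26-fold, limma adjusted p = 0.188). For both genes KC-Tie2 replicate 3 was the library nearest to Control and still above it. Irf1 shares 3144 bases with Gm17334 on the other strand (80.7 and 87.4 between the group means), and the sources used here do not say whether counting used the strand. Irf9 shares 123 bases with Rnf31 on the same strand.

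Stat2, the partner of IRF9, was at 457, 499 and 517 in Control and at 672, 523 and 444 in KC-Tie2 libraries (1.10-fold, limma adjusted p = 0.712), so that its KC-Tie2 libraries covered the whole Control range. Irf7, the amplifier of type I interferon production, was at 223 ± 10.3 in Control against 250 ± 24.2 in KC-Tie2 kidneys. Irf9 and Irf1 were called in some of the alternative fits. Irf9 had a limma adjusted p of 0.0492 with Control replicate 2 left out and 0.035 with KC-Tie2 replicate 3 left out, and Irf1 of 0.0476 without KC-Tie2 replicate 3.

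Parp14, a mono-ADP-ribosyltransferase that interferons induce, was at 584, 774 and 639 in Control and at 966, 927 and 830 in KC-Tie2 libraries. The groups stood apart, with a difference of 1.37-fold (log2 fold change 0.45 ± 0.11, limma adjusted p = 0.0594). It was called when Control replicate 2 (limma adjusted p = 0.013) or KC-Tie2 replicate 3 (0.0376) was left out, and the authors' deposited table lists an FDR of 0.0156. Parp9 and Dtx3l, whose proteins form a complex, are neighbours of Parp14 on chromosome 16 and had log2 fold changes of 0.013 and 0.033. Dtx3l was at 459, 573 and 577 in Control and at 549, 535 and 554 in KC-Tie2 libraries (1.02-fold), and Parp9 at 418 ± 33.5 and 423 ± 51.7. Parp9 and Dtx3l overlap by 682 bases on opposite strands.

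The 2 chemokines attract T cells through the receptor CXCR3. Cxcl9, which depends mostly on interferon-gamma, was at 26.3, 34.7 and 24.4 in Control and at 21.1, 20 and 32.7 in KC-Tie2 libraries (log2 fold change -0.22 ± 0.33, limma adjusted p = 0.821). Cxcl10, which both kinds of interferon induce, was at 27.3, 37.2 and 39.2 in Control and at 46.6, 58.4 and 38.1 in KC-Tie2 libraries (1.36-fold, limma adjusted p = 0.475). Both overlapped between the groups. Cxcl10 shares 2252 bases with Art3 on the other strand.

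Set side by side, the type I-like effectors had a median log2 fold change of 0.096, the transcription factors of 0.25 and the GTPases of 0.27. No test was made of the difference between classes, whose genes share the same 6 libraries. The libraries did not order the classes alike. As class means of log2(value + 1) minus the Control mean, the effectors stood at 0.23 and 0.25 in KC-Tie2 replicates 1 and 2 but at 0.0064 in replicate 3, within the Control range of -0.016 to 0.031. The transcription factors stood at 0.41, 0.31 and 0.054, the last also below Control replicate 2 at 0.064. The GTPases in KC-Tie2 replicate 3 stood at 0.35, between replicates 1 and 2. KC-Tie2 replicate 3 was the lowest of its group at 23 of the 40 genes, beside 34.8% of all genes tested, and at 4 of 4 transcription factors, 10 of 20 effectors and 3 of 8 GTPases. The medians moved with single libraries. That of the effectors was 0.31 without KC-Tie2 replicate 3, 0.055 without KC-Tie2 replicate 1 and 0.17 when Control replicate 2 was omitted. Without KC-Tie2 replicate 3 the GTPases had a median of 0.23 and the transcription factors of 0.36, so that the effectors then stood above the GTPases.

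**Figure D3:**
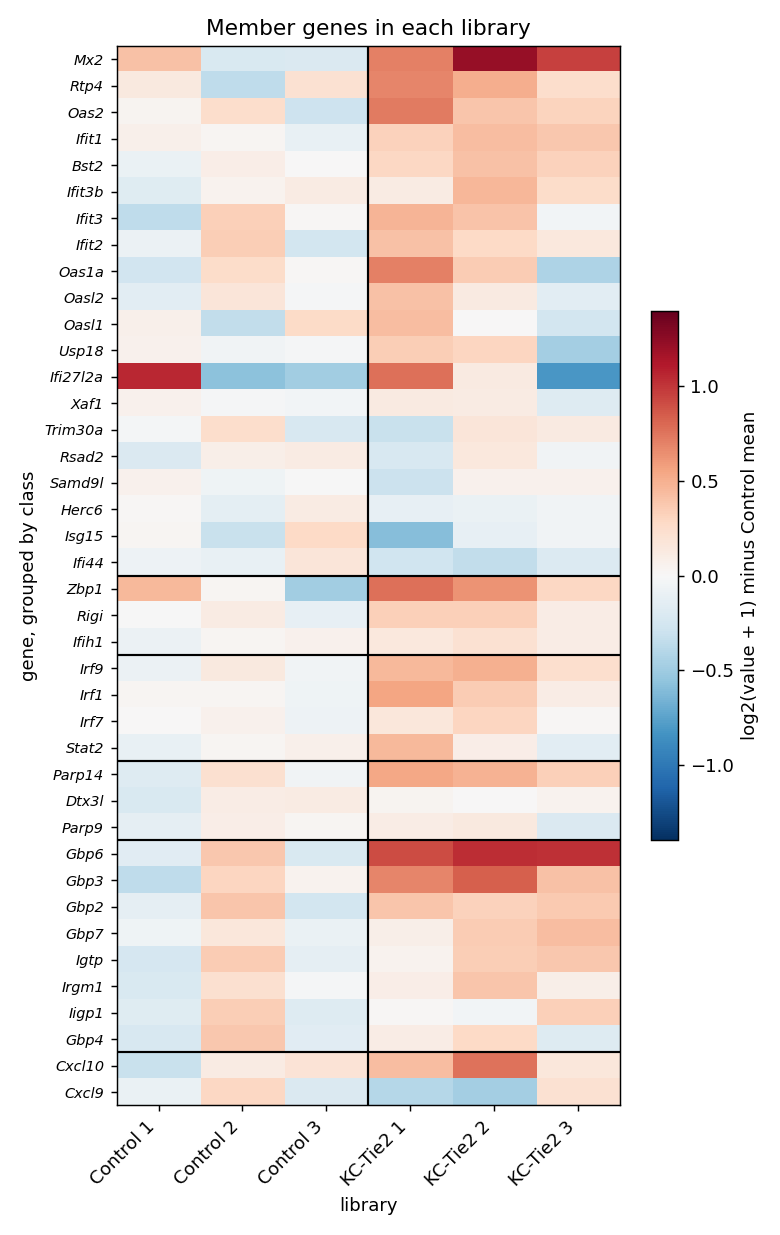
Log2(normalized count + 1) minus the Control mean of the gene, as colour (red above the Control mean, blue below), for the 40 genes from top to bottom, with black lines between classes, in each of the 6 libraries from left to right. KC-Tie2 replicate 3 is the lowest KC-Tie2 library at all 4 transcription factors, and Control replicate 2 the highest Control library at all 8 GTPases.

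Genes upstream in the pathway were read from fixed lists. Of 27 interferon ligands, receptors and signalling genes, 20 were tested, 1 rose and 0 fell, with a median log2 fold change of 0.036. Of all genes tested, 0.855% were called higher. At an unadjusted limma p under 0.05, 5 of the 20 were higher and 0 lower, beside 7.57% and 7.77% of all genes. The gene that rose was Socs3 (48.5 ± 9.1 to 111 ± 31, SD, n = 3, limma adjusted p = 0.0435), a feedback inhibitor that interleukin-6 induces more than interferons do. Ifng, Ifnb1 and Socs1 were not analysed here. The interferon-gamma receptor genes Ifngr1 and Ifngr2 had log2 fold changes of 0.10 ± 0.10 and -0.078 ± 0.11. The type I receptor genes Ifnar1 and Ifnar2 had values of 0.039 ± 0.076 and 0.29 ± 0.11 (limma adjusted p = 0.867 and 0.216), and the kinase gene Jak2 -0.12 ± 0.07. Nlrc5, the transactivator of MHC class I genes, was at 150 ± 34.5 and 246 ± 51.3 (limma adjusted p = 0.106).

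Of 14 genes that sense nucleic acids upstream of type I interferon, 13 were tested and none was called, with a median of 0.12. At an unadjusted limma p under 0.05, 2 were higher, beside 7.57% of all genes. The 2 were Mavs, the adaptor of RIG-I and MDA5 (1881 ± 75.4 to 2306 ± 233, SD, n = 3, limma adjusted p = 0.105), and Tlr9, a receptor for unmethylated DNA (26.6 ± 2.45 to 50.2 ± 9.19, limma adjusted p = 0.129). Trim25, a ubiquitin ligase of RIG-I, was next by p-value, at 2523 ± 224 and 2319 ± 59.8. Cgas, of the same list, reached 24.8, the lowest maximum of any gene kept, only in KC-Tie2 replicate 2, which favoured a value above 0. Of 12 further interferon-inducible GTPases, 7 were tested and none was called, with a median of 0.29. Of the 7, 6 were above 0 and 1 was higher at an unadjusted limma p under 0.05, beside 50.3% and 7.57% of all genes. The 3 with the smallest p were Gvin1 (1.23-fold, limma adjusted p = 0.17), Irgm2 (1.17-fold) and Gbp5 (1.28-fold).

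Of 51 further interferon-stimulated genes, 46 were tested and none was called, with 34 above 0 (beside 50.3% of all genes tested) and a median of 0.11. Ifi209, Ifi211 and Apol9b, among the 34, stayed in Control under 24.8, the lowest maximum of any gene kept. They were kept only through KC-Tie2 libraries, which favoured values above 0. At an unadjusted limma p under 0.05, 6 of the 46, Ifi211 among them, were higher and 2 lower, beside 7.57% and 7.77% of all genes. The 3 with the smallest p were Ifitm1, a membrane restriction factor (94.8 ± 20.4 to 147 ± 22, SD, n = 3, limma adjusted p = 0.135), Ly6a (5591 ± 592 to 4599 ± 354, limma adjusted p = 0.15) and Lgals3bp (916 ± 164 to 1387 ± 239, limma adjusted p = 0.158). Ly6a and Lgals3bp thus went in opposite directions, each without overlap between the groups, beside 9.96% of all genes above and 10% below.

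In bulk tissue, more cells of a type and more RNA per cell cannot be told apart, and several members are expressed by immune cells. All 14 macrophage and monocyte markers had a log2 fold change above 0 (median 0.67), beside 50.3% of all genes tested. Of the 14, C1qa, C1qb and C1qc, the complement C1q chains, rose (3 genes), where 0.855% of all genes tested were called higher. Fcgr1, another of the 14, reached 24.8, the lowest maximum of any gene kept, only in KC-Tie2 replicate 1. That favoured a value above 0 for Fcgr1. Summed, the 14 markers stood at 2199 to 2826 in Control and 2937 to 3764 in KC-Tie2 libraries, highest in KC-Tie2 replicate 2. Of 10 neutrophil markers 3 were tested, and all 3 rose. Their sums were 8.4 to 17.3 in Control and 58.1 to 145 in KC-Tie2 libraries. In Control all 3 stayed under 24.8, the lowest maximum of any gene kept, so they were kept only through the KC-Tie2 libraries. A marker as low in Control that did not rise would be absent, so the count of 3 out of 3 was bound to come out high. S100a8, among the 3, was at 0 in Control replicates 1 and 3. Of 13 T and NK cell markers only Cd4 and Cd8a were tested. Their sums were 32.5 to 52.9 in Control and 18.1 to 37.7 in KC-Tie2 libraries, highest in Control replicate 2. Both genes reached 24.8, the lowest maximum of any gene kept, only in that library. The place of the highest sum thus followed from which genes were kept, and nothing was read from it. Endothelial cell markers (8 of 8 tested) summed to 12968 to 14001 and 12486 to 13755, and dendritic cell markers (5 of 7) to 583 to 648 and 488 to 661. Most of the dendritic cell sum was Zbtb46, with means of 445 in Control and 415 in KC-Tie2 kidneys. The 3 tested markers of plasmacytoid dendritic cells, of 5 listed, were Ccr9, Tcf4 and Runx2. All were below 0 (median -0.13), with sums of 1795 to 2017 and 1679 to 1809. Nearly all of that sum was Tcf4, with means of 1747 and 1623, so the sum followed 1 gene and was not read as a number of these cells. The 4 red blood cell markers, globin genes, had sums of 1422 to 2155 in Control libraries, against 4956, 919 and 3926 in the KC-Tie2 libraries in order of replicate, so that replicates 1 and 3 stood above and replicate 2 below the Control range in these perfused kidneys. The part of these cells in the interferon gene values was not tested.

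**Figure D4:**
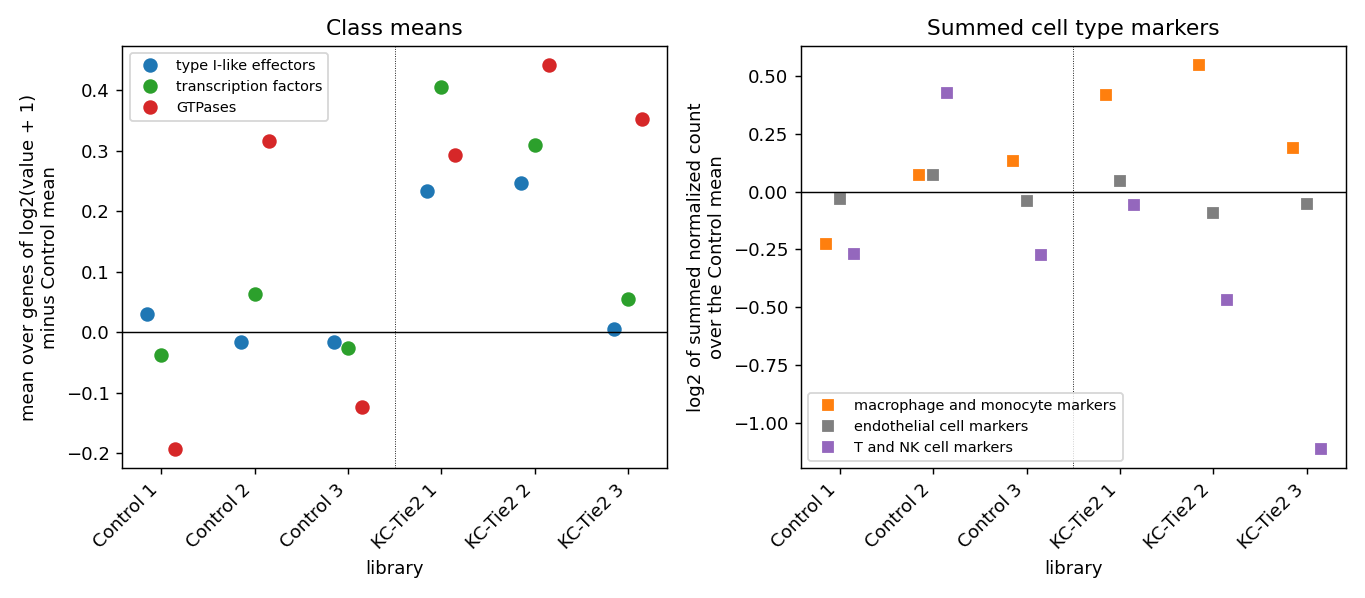
Left, mean over genes of log2(normalized count + 1) minus the Control mean for the effectors, transcription factors and GTPases in each library. Right, log2 of the summed normalized count of macrophage and monocyte (14 genes), endothelial (8) and T and NK cell (2) markers over its Control mean. The GTPases are at 0.32 in Control replicate 2 and at 0.29 to 0.44 in the KC-Tie2 libraries. The T and NK cell genes were kept only through their values in Control replicate 2, so that the high sum there cannot be set beside the GTPases.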

How the data were processed

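The deposited table holds a signal per gene, called normalized counts by its file name; Partek 12.5.0, STAR, DESeq2 and the build mm39 are named, without their roles, in the submitters' processing notes. Of the deposited values under 60, 68.2% to 71% lay within 0.01 of a whole multiple of 1 step per library, so values were read as estimated counts divided by a factor, and whole reads were not recovered. Low genes were absent, since the lowest maximum of any gene over the libraries was 24.8. The second deposited table gives, per the file headers, the authors' p-value, FDR, ratio and a signed fold change (a score); it was copied, not retested. Gene ends were read 1 base before the listed stop, the reading under which lengths equalled the reference length for 98.3% of genes.

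Values were taken as log2(value + 1), and genes with a mean of at least 10 were fitted with limma 3.58.1 in R 4.3.3 (eBayes with trend and robust, two-sided, Benjamini-Hochberg over 17539 genes). "Rose" and "fell" mean an adjusted p under 0.05. A simulation of this comparison on 17536 genes recovered 95% of 2-fold and 100% of 4-fold changes, and 9 unchanged genes were called. It gave every gene the same dispersion and changed no gene with a mean as low as that of Mx2. Changes under 2-fold were not simulated, and the highest log2 fold change of a member was 0.99. It therefore does not say how often differences of the size seen in the members would be called. The members and lists were chosen with earlier results of these data known. Values in each library are given for members with an unadjusted p under 0.05 and the 2 of highest mean in each class, and pathway lists by their called genes or the 3 of smallest p. Alternatives were pseudocounts, filters, scalings, a replicate block, eBayes without robust, library weights, wider classes and each library left out; the sums of Gbp6 with its neighbours were chosen after the values were seen. Python 3.11.15 with pandas 2.3.3 and matplotlib 3.10.9 was used for the rest. The result of 1 gene of the signalling list is not reported here.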

Additional observations from a re-analysis of the deposited data

How the results depend on the processing

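The number of all genes called was 297, and 581 with the replicate block, 549 with library weights and 48 to 682 with each library left out. Interferon genes called higher numbered 1, then 2 with the replicate block (Gbp6 and Parp14), 3 with library weights (Gbp6, Irf9 and Parp14) and 0 to 4 with a library left out. Members higher at an unadjusted p under 0.05 numbered 12, and 5 to 15 with a library left out, where the share of all genes was 5.07% to 8.66%. Members whose groups did not overlap in either direction numbered 12, beside 20% of all genes, and 12 to 23 with a library left out, beside 27% to 36.1% of all genes, since fewer libraries overlap less often. The median log2 fold change of the effectors ranged from 0.055 to 0.31 over the left-out libraries. With a pseudocount of 0.5 or of 5, without the filter, with a minimum mean of 100, under median-of-ratios scaling or quantile normalization, and for eBayes without robust, Gbp6 was the single member called. Counting the sensors and the PARP group with the effectors gave a median of 0.14, and Irf1, Cxcl9 and Cxcl10 with the GTPases 0.29. Deviations of same-numbered libraries correlated at 0.18, -0.096 and 0.017 across genes, so the numbers were not taken to pair the samples. Depth limits the low members: Mx2, Isg15, Cxcl9, Cxcl10, Oas1a, Zbp1 and Oasl1 had at most 70 estimated counts in any library.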

Other observations

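Genes of the PYHIN family, interferon-inducible DNA sensors and regulators encoded in a cluster, were picked from the list of further interferon-stimulated genes after their values were seen. None was called. Ifi211 had means of 19 ± 4.58 (Control) and 40.5 ± 13.9 (KC-Tie2; SD, n = 3, limma adjusted p = 0.177), Ifi207 at 58.5 ± 8.93 and 82.9 ± 15.3 (limma adjusted p = 0.296) and Ifi209 at 21.9 ± 1.24 and 32 ± 7.3 (limma adjusted p = 0.495), each with groups that did not overlap. In Control, Ifi211 and Ifi209 stayed under 24.8, the lowest maximum of any gene kept. Both were kept only through KC-Tie2 libraries, which favoured that order, so nothing was read from it. Ifi203, of the same family, lay the other way, at 433 ± 11.6 and 388 ± 31.9, also without overlap, while Ifi204 and Mndal overlapped between the groups. Of all genes tested, 9.96% lay above and 10% below without overlap, so groups that stand apart are common in these data. Ly6e, an interferon-induced surface protein gene related to Ly6a, had means of 4226 ± 354 (Control) and 3547 ± 370 (KC-Tie2; limma adjusted p = 0.192).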
